A study of Mus musculus with 6 samples.

Results

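The mouse genes described here encode enzymes and adaptors that attach ubiquitin to proteins or take it off. They were taken by symbol from the deposited expression table: every name beginning with Usp, Ube, Rnf, Trim, Fbxo, Fbxl, Fbxw, Klhl, Herc, Hectd, Cul or Asb and going on with a digit, with Usp18 left out. The rule gave 64 of the 3733 genes in the table, out of 398 protein-coding genes of these families in the RefSeq annotation. Total RNA of hippocampus was sequenced in 6 libraries, 2 in each of 3 groups. PIA+IL-27 mice received the immune activation and recombinant IL-27, a cytokine made by myeloid cells. PIA mice received the immune activation alone, which the study names postnatal immune activation and the design text gives as LPS, the endotoxin of Gram-negative bacteria. Control mice are labelled only as such. The labels give no strain, age, sex, dose or time of tissue collection, and none says whether a library is 1 animal or a pool. The p-values therefore measure the spread between these 6 samples only.

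Ubiquitin is activated by an E1 enzyme, passed to an E2 conjugating enzyme and joined to a lysine of the target by an E3 ligase. HECT ligases take the ubiquitin onto themselves first, whereas RING ligases, among them the Rnf and TRIM proteins, bring the loaded E2 and the target together. Cullins are scaffolds of multi-subunit RING ligases, and F-box, Kelch-like (Klhl) and ASB proteins are interchangeable receptors that choose their targets. Ubiquitin-specific proteases (Usp) remove the tag. In neurons the system sets the turnover of synaptic proteins, and in innate immunity several TRIM and Herc genes are switched on by interferon.

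The table holds only genes that pass the authors' thresholds (a 1-unit log2 difference either way, Q of 0.05 or less) in 1 or more of 3 comparisons. It was thus selected on the same 6 libraries and says nothing about family members outside it. Listed genes held 1593441 and 1386617 reads in PIA+IL-27, 893359 and 641672 in PIA, and 648600 and 1533805 in Control. Markers of neighbouring tissue differed within groups. The neocortical marker Cux2 had 2370.1 and 584 normalized reads in PIA+IL-27, 664 and 2400.2 in PIA, and 746 and 577 in Control. Rorb, another, had 802 and 92.2 in PIA+IL-27, 46.1 and 255 in PIA, and 30.4 and 125 in Control. The 4 listed hippocampal neuron markers (Dsp, Fibcd1, Prox1 and Spink8, of 10) summed to 404 and 2530.2 in PIA+IL-27, 2330.1 and 610 in PIA, and 1889 and 3155 in Control. All 9 choroid plexus markers were listed, and summed to 180.4 and 851 in PIA+IL-27, 11998 and 419 in PIA, and 303 and 61570.1 in Control. Neither Cux2 nor Rorb was near 0 in any library; Spink8 was near 0 in PIA+IL-27 1 and PIA 2 (1.04 and 1.09), and of the choroid plexus markers Tmem72 was at 0 in both PIA+IL-27 libraries, Otx2 in PIA+IL-27 1 and Kcne2 in Control 1. The 5 listed neutrophil and monocyte markers, of 6, summed to 142 and 48.5 in PIA+IL-27, 2742 and 101 in PIA, and 562 and 19.0 in Control. The 5 listed Y-linked genes summed to 1486 and 6.80 in PIA+IL-27, 543 and 599 in PIA, and 2.94 and 9.52 in Control, so sex cannot be told apart from PIA against Control. In bulk tissue, fewer cells of a type and less RNA per cell cannot be told apart.

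Values below are the authors' normalized reads, which are the estimated reads of a gene divided by 1 factor per library. Over the 6 libraries the members averaged 1.33 (Rnf17) to 3186 (Trim2) normalized reads, with a median of 171. Averages of at least 1000 were reached by 6 members, and 11 stayed under 10. Most members shared 1 pattern over the libraries, and it did not follow the treatment groups. In 46 of the 64 members (71.9%), both PIA+IL-27 libraries and Control 2 were all above both PIA libraries and Control 1. The same holds for 52.4% of all genes in the table, so the pattern is not particular to the ubiquitin genes. Among members that averaged at least 100 normalized reads it held for 36 of 37, against 76.2% of the 1602 other genes at that level. Among members under 100 it held for 10 of 27 (37.0%), against 33.4% of 2067 others. Rnf183, with 0 to 6.55 normalized reads, was the 1 member with the opposite order. Summed over all members, PIA+IL-27 had 39780 and 32326 normalized reads, PIA 16113 and 12849, and Control 12112 and 32338. The 2 Control libraries thus lay as far apart as PIA+IL-27 and PIA. The 1 listed microglial marker of 6, P2ry12, had the same order, with 258 and 184 in PIA+IL-27, 9.61 and 56.7 in PIA, and 14.7 and 232 in Control. The part of cell make-up in the common pattern was not tested.

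**Figure D1:**
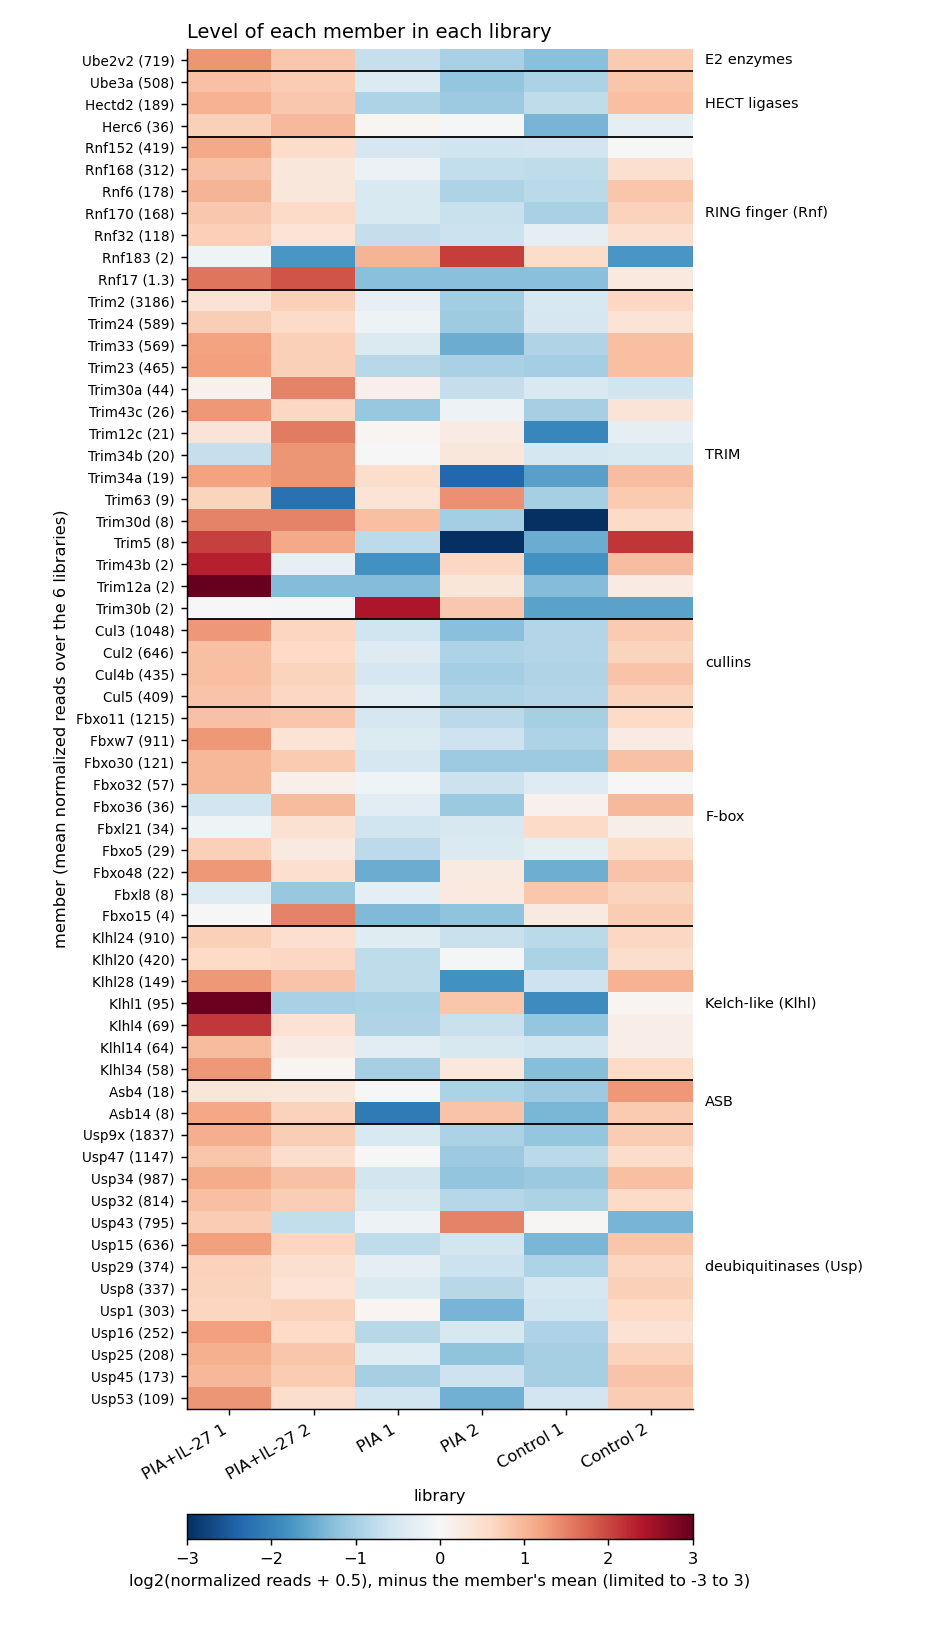
Level of 62 of the 64 members in each library, as log2 of normalized reads with 0.5 added, minus the member's own mean over the 6 libraries; rows are grouped by class and ordered by mean level, which is given in brackets. In 44 of 62 rows PIA+IL-27 1 and 2 and Control 2 are all above PIA 1 and 2 and Control 1; Usp43, Fbxl8 and 7 of the 9 interferon-inducible members depart from this.

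Ube2v2 was the only listed member of the 37 annotated Ube2 genes. Its product is an E2 variant without a catalytic site that helps its partner build non-degradative ubiquitin chains. Ube2v2 had 1429 and 1009 normalized reads in PIA+IL-27, 353 and 292 in PIA, and 240.0 and 994 in Control. Control 2 stood 4.14-fold above Control 1 and level with PIA+IL-27 2.

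Of the HECT ligases 4 were listed, out of 12 annotated. Ube3a, whose loss from the maternal chromosome causes Angelman syndrome in humans, had 799 and 736 normalized reads in PIA+IL-27, 326 and 194 in PIA, and 224 and 770.3 in Control. Hectd2 had 319 and 275 in PIA+IL-27, 81.7 and 73.1 in PIA, and 92.1 and 293 in Control. In both genes PIA+IL-27 and PIA did not overlap. Control covered nearly the whole range of the 2 groups in Ube3a. In Hectd2 both PIA libraries were below both Control libraries, as in 16.5% of all genes. Herc6, an interferon-inducible HECT member, is described with the TRIM cluster.

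Among Rnf genes 7 of 83 were listed, and in 6 of them both PIA+IL-27 libraries were above both PIA libraries, as in 57.1% of all genes. Rnf152, a ligase of the lysosomal membrane, had 826 and 549.5 normalized reads in PIA+IL-27, 262 and 247 in PIA, and 251 and 378 in Control. It was the Rnf gene with the most reads, and both its PIA+IL-27 values were above both Control values. Rnf168, which ubiquitinates histones at DNA breaks, had 522 and 359 in PIA+IL-27, 252 and 171 in PIA, and 167 and 401 in Control. Rnf170, a ligase of the endoplasmic reticulum, had 265 and 224 in PIA+IL-27, 109.5 and 94.9 in PIA, and 76.4 and 241 in Control. Rnf6 and Rnf32 had the same split of the libraries as Rnf168 and Rnf170, at 81.8 to 315 and 66.3 to 180.4 normalized reads.

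The TRIM genes held the most members, 15 of 68 annotated. Trim2 was the member with the most reads and, per length, the highest mean level of all members (48.3 TPM). It ubiquitinates the neurofilament light chain. Trim2 had 3921 and 4753 normalized reads in PIA+IL-27, 2444 and 1408 in PIA, and 2086 and 4503 in Control. Trim24 and Trim33 encode chromatin-binding cofactors of transcription. Trim24 had 894 and 806 in PIA+IL-27, 484 and 255 in PIA, and 380.0 and 712 in Control. Trim33 had 1054 and 759 in PIA+IL-27, 339 and 164 in PIA, and 246 and 854 in Control. Trim23, which also carries a GTPase domain, had 886 and 614 in PIA+IL-27, 209 and 191 in PIA, and 184 and 703 in Control. PIA was the lowest group by mean in each of these 4 genes, and within Control they differed by 1.87-fold (Trim24) to 3.81-fold (Trim23).

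The 4 listed cullins, of 8 annotated, all had the common pattern, as had 52.4% of all genes. Cul3, the scaffold that carries Kelch-like receptors, had 2113 and 1327 normalized reads in PIA+IL-27, 565 and 355 in PIA, and 463 and 1463 in Control. Cul2, which serves the von Hippel-Lindau protein, had 1067 and 865 in PIA+IL-27, 436 and 300.03 in PIA, and 310.5 and 899 in Control. Cul4b, linked to X-linked intellectual disability in humans, had 699 and 591 in PIA+IL-27, 260.4 and 183 in PIA, and 199 and 678 in Control. Cul5, which serves the ASB and other SOCS box receptors, had 651 and 553 in PIA+IL-27, 283 and 189 in PIA, and 196 and 583 in Control. Control 2 exceeded Control 1 in all 4 cullins, by 2.89-fold to 3.40-fold. Their median log2 ratio of group means was 1.46 for PIA+IL-27 against PIA, with Cul3 highest at 1.90.

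Receptors of the cullin ligases were more varied. Fbxo11, mutated in a neurodevelopmental disorder in humans, had 1939 and 1877 normalized reads in PIA+IL-27, 746 and 607 in PIA, and 528 and 1594 in Control. Fbxw7, the receptor for cyclin E, Myc and Notch, had 1940.5 and 1059 in PIA+IL-27, 595 and 514 in PIA, and 417 and 938 in Control. Both genes were higher in each PIA+IL-27 library than in any other library. Klhl24 had 1357 and 1186 in PIA+IL-27, 648 and 518 in PIA, and 472 and 1283 in Control. Klhl20, a Cul3 adaptor, had 579 and 589 in PIA+IL-27, 225 and 375 in PIA, and 199 and 552 in Control. All of these receptors, and Klhl28, had the common pattern. Klhl28 had 279 and 207 in PIA+IL-27, 66.3 and 31.6 in PIA, and 73.5 and 235 in Control. Fbxo5, an inhibitor of the anaphase-promoting complex, had 43.8 and 32.0 in PIA+IL-27, 15.4 and 19.6 in PIA, and 21.5 and 39.0 in Control. PIA was below Control without overlap in Fbxo5. Of 11 F-box genes 9, and of 7 Klhl genes 5, had both PIA+IL-27 libraries above both PIA libraries, beside 57.1% of all genes. Fbxo30, Fbxo32 (a ligase of muscle atrophy), Fbxo48 and Klhl14 had the common pattern at 5.77 (Fbxo48) to 202 (Fbxo30) normalized reads, and so had Trim43c of the TRIM genes, at 9.61 to 54.2. The SOCS box receptors Asb4 (6.86 to 38.1 normalized reads) and Asb14 (0.961 to 13.6) were near the lower limit of detection.

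Of the Usp deubiquitinases 13 were listed, of 55 annotated, and 12 shared the common pattern, beside 52.4% of all genes. Usp9x, a large X-linked protease linked to intellectual disability in humans, had 3268 and 2558 normalized reads in PIA+IL-27, 1114 and 789.9 in PIA, and 685 and 2609 in Control. Usp47, which acts in base excision repair, had 1834 and 1471 in PIA+IL-27, 1012 and 485 in PIA, and 589 and 1492 in Control. Usp34 had 1716 and 1458 in PIA+IL-27, 543 and 349 in PIA, and 366 and 1490.2 in Control. Control 2 exceeded Control 1 by 2.53-fold (Usp47) to 4.06-fold (Usp34) in these 3 genes, which is within the range of the 46 members of the pattern (1.32-fold to 12.6-fold). Usp15, which acts on components of TGF-beta signalling, had 1227 and 807 in PIA+IL-27, 306 and 352 in PIA, and 199.8 and 925 in Control. Usp1, which acts in DNA crosslink repair, had 417 and 436 in PIA+IL-27, 282 and 101 in PIA, and 176 and 406 in Control. Usp16, a protease of ubiquitinated histone H2A, had 511 and 326 in PIA+IL-27, 120.1 and 155 in PIA, and 113 and 289 in Control. PIA was between the Control libraries in Usp1, Usp15 and Usp16 except for PIA 2 in Usp1, which was the lowest library. Usp8, Usp25, Usp29, Usp32, Usp45 and Usp53 also had the pattern, at 32.7 (Usp53) to 1337 (Usp32) normalized reads.

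Of 17 family genes on a list of members known as interferon-inducible, 9 were in the table: Herc6 and 8 TRIM genes. In the RefSeq gene order of chromosome 7 the 8 TRIM genes lie in a single run, namely Trim34a, Trim5, Trim12a, Trim34b, Trim12c, Trim30b, Trim30a and Trim30d, and no other TRIM gene but Trim30c stands among them. They are close copies, and 7 of them had estimated read counts that are not whole in at least 1 library, so reads shared between copies make each single value uncertain. The same holds for members elsewhere, among them Klhl24, Usp16 and Usp34. Some of the promoters show the relation between copies, and some hold a pair of GAAA boxes, the core of the interferon-stimulated response element. The stretches below run from 80 bases before the annotated transcript start to 20 bases from the start on, and are taken from RefSeq (build GRCm38.p6); capitals mark GAAANNGAAA, which lies on the strand opposite to the one printed.
Trim12c, chr7:104353330-104353429, minus strand: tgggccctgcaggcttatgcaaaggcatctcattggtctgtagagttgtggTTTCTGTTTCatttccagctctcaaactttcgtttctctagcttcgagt
Trim5, chr7:104288087-104288186, minus strand: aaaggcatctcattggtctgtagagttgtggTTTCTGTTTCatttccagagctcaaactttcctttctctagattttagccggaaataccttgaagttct
Trim30a, chr7:104465174-104465273, minus strand: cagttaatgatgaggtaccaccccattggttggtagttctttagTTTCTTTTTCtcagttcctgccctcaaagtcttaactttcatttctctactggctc
Trim30d, chr7:104507830-104507929, minus strand: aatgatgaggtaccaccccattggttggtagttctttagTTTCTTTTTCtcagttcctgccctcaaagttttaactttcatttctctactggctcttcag
Trim34a, chr7:104244377-104244476, plus strand: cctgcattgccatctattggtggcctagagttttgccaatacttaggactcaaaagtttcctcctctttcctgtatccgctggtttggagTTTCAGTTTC

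The motif began 29, 49, 36 and 41 bases before the start in Trim12c, Trim5, Trim30a and Trim30d, and 10 bases after it in Trim34a. The windows of Trim12a and Trim5 shared an identical run of 241 bases. Those of Trim12c and Trim5, and of Trim12c and Trim12a, shared 1 of 71 bases, and those of Trim30a and Trim30d 1 of 118 bases. These matches are thus not independent. Between Trim34a and Trim34b the longest run was only 11 bases, and between Trim30b and Trim30a or Trim30d only 8 bases. On both strands and in windows of 300 bases (250 before the start and 50 after it), the motif was found in 7 of 10 windows of the interferon list, in 3 of 49 windows of the other members and in 3.44% of all 32851 windows. The 7 windows belong to 6 of the 9 genes, the 5 printed and Trim12a. No match was found in the windows of Herc6, Trim30b and Trim34b. Among the other members Asb14, Fbxo36 and Trim2 had a match. The gamma-activated site, TTCNNNGAA, was found in 0 of the 10 windows, in 2 of 49 of the others and in 8.30% of all windows. A promoter window was at hand for 45 of the 64 members.

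The levels of these genes were low, and their order over the libraries differed from gene to gene. Herc6, the main ligase for the ubiquitin-like protein Isg15 in the mouse, had 52.1 and 62.1 normalized reads in PIA+IL-27, 32.7 and 30.5 in PIA, and 11.8 and 25.7 in Control. With the authors' factors the 3 groups did not overlap, PIA+IL-27 being highest and Control lowest. Trim12c, a mouse relative of the antiretroviral factor Trim5, had 21.9 and 49.5 in PIA+IL-27, 17.3 and 19.6 in PIA, and 3.92 and 13.3 in Control, again with no overlap. The order of PIA+IL-27 and PIA in both genes turned with the scaling: the fitted log2 fold change of PIA+IL-27 against PIA was 0.85 in Herc6 and 0.95 in Trim12c with the authors' factors, and -0.34 and -0.21 with TMM factors. With GC and length trends removed that of Herc6 was -0.093. Trim30a, which restrains Toll-like receptor signalling in the mouse, had 41.7 and 108 in PIA+IL-27, 42.3 and 22.9 in PIA, and 27.4 and 24.8 in Control. Its value in PIA+IL-27 2 was more than double that in any other library. Trim34b had 10.4 and 43.7 in PIA+IL-27, 17.3 and 21.8 in PIA, and 11.8 and 12.4 in Control. Trim30d had 14.6 in both PIA+IL-27 libraries, 9.61 and 2.18 in PIA, and 0 and 7.62 in Control. Trim34a had 31.3 and 34.0 in PIA+IL-27, 19.2 and 2.18 in PIA, and 3.92 and 25.7 in Control. Trim34a and Trim5 followed the pattern of the broadly expressed members. Trim5 had 16.7 and 8.74 in PIA+IL-27, 1.92 and 0 in PIA, and 0.979 and 18.1 in Control.

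**Figure D2:**
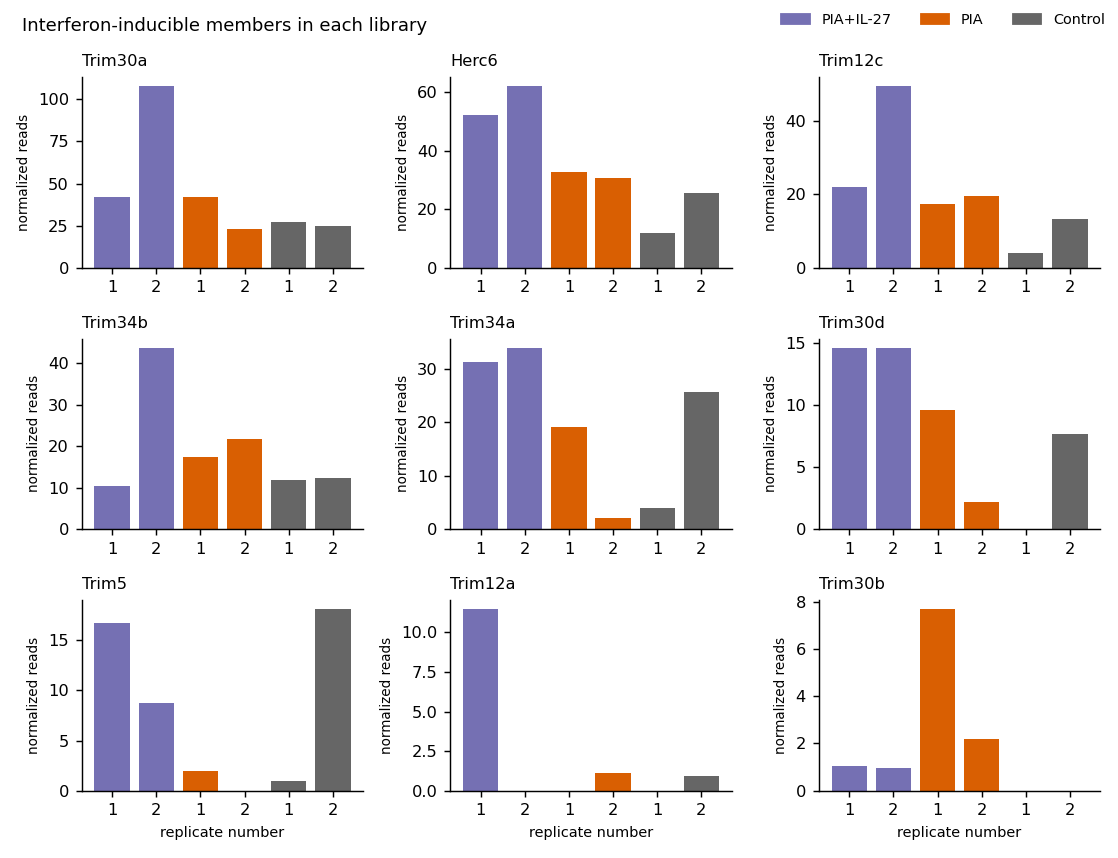
Normalized reads of the 9 interferon-inducible members in each library, 1 bar per library, in order of mean level; each panel has its own axis. Herc6 and Trim12c have PIA+IL-27 above PIA and PIA above Control on this scale (with TMM factors PIA+IL-27 is below PIA, at log2 fold changes of -0.34 and -0.21), while Trim5 and Trim34a are also high in Control 2 and Trim30b is highest in PIA 1.

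Summed over the 9 genes, PIA+IL-27 had 201 and 321 normalized reads, PIA 148 and 103, and Control 59.7 and 129. With the authors' factors the summed values of PIA+IL-27 were above those of both other groups, and those of PIA and Control overlapped. The order of these sums was not tested with other factors. Their median log2 ratio of group means was 1.58 in PIA+IL-27 against Control, beside 0.53 for all genes of the table. It was 1.18 in PIA+IL-27 against PIA, beside 1.13, and 0.57 in PIA against Control, beside -0.66. With Trim30b set to its bound against a Control of 0 reads the medians were the same. Herc6 and Trim34b are in the table only as higher in PIA+IL-27 against Control. Trim12a, Trim30a, Trim30d and Trim34a are in it only as higher in PIA+IL-27, against Control and against PIA. The sums and the medians of 1.58 and 1.18 thus in large part reflect that selection. Usp18, the interferon-inducible protease left out of the rule, had 17.7 and 308 in PIA+IL-27, 144 and 66.6 in PIA, and 88.2 and 4.76 in Control. Isg15 had 17.7 and 195 in PIA+IL-27, 270.003 and 96.0 in PIA, and 99.9 and 10.5 in Control. PIA+IL-27 1 was thus low in Usp18 and Isg15, and Herc6 and Trim12c were not low in it. None of these genes passed the test in any comparison, as given below.

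PIA against Control asks which members differ after immune activation. No member passed edgeR's quasi-likelihood test at an adjusted p of 0.05 in either direction, among 58 tested; of all 3216 tested genes 0.155% passed as higher and 0.0622% as lower. At an unadjusted p under 0.05 there were 0 higher members and 1 lower, beside 6.28% of all tested genes in either direction, and the smallest adjusted p of a member was 0.617. DESeq2 and limma also called 0 members in each of the 3 comparisons. The median log2 ratio of group means over the 64 members was -0.63, beside -0.66 for all genes, and 53 members were lower in PIA and 11 higher. This direction rests on Control 2: without it the members' median was 0.30, and without Control 1 it was -1.15. It also rests on the scaling, since with TMM factors computed on the listed genes the median was 0.05 for the members and -0.0013 for all genes. The 2 PIA libraries were both below both Control libraries in 9 members, beside 16.5% of all genes, and both above in 5, beside 17.2%. The 5 were Herc6, Trim12c, Trim34b, Trim30b and Rnf183. The authors' own list holds 17 members as lower and 4 as higher, beside 34.4% and 18% of the table.

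Members with the smallest p in this comparison are given with the fitted log2 fold change and its standard error. Usp43 was at 1.39 ± 0.85, Trim12c at 1.25 ± 1.15, Klhl1 at 0.81 ± 0.96, Herc6 at 0.75 ± 1.05 and Trim63 at 0.84 ± 1.24, with adjusted p-values of 0.617 to 0.656 by edgeR's quasi-likelihood test. On the lower side Klhl28 was at -1.65 ± 0.95, Hectd2 at -1.31 ± 0.92, Trim23 at -1.15 ± 0.87 and Trim33 at -1.13 ± 0.86, each with an adjusted p of 0.617 by edgeR. Trim5 had the smallest unadjusted p (0.040, adjusted p = 0.617 by edgeR) on 2 reads in PIA and 20 in Control. That is a 9.45-fold lower level, with a counting interval from 2.30-fold to 83.4-fold that covers counting error only. It rests on Control 2: without that library the fitted log2 fold change of Trim5 was 0.028, against -3.11 with it. Trim23 and Trim33 were also above 0 without Control 2 (0.12 and 0.033), and Klhl1 was at -0.34 without PIA 2. Trim63 was at -0.084 with GC and length trends removed.

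**Figure D3:**
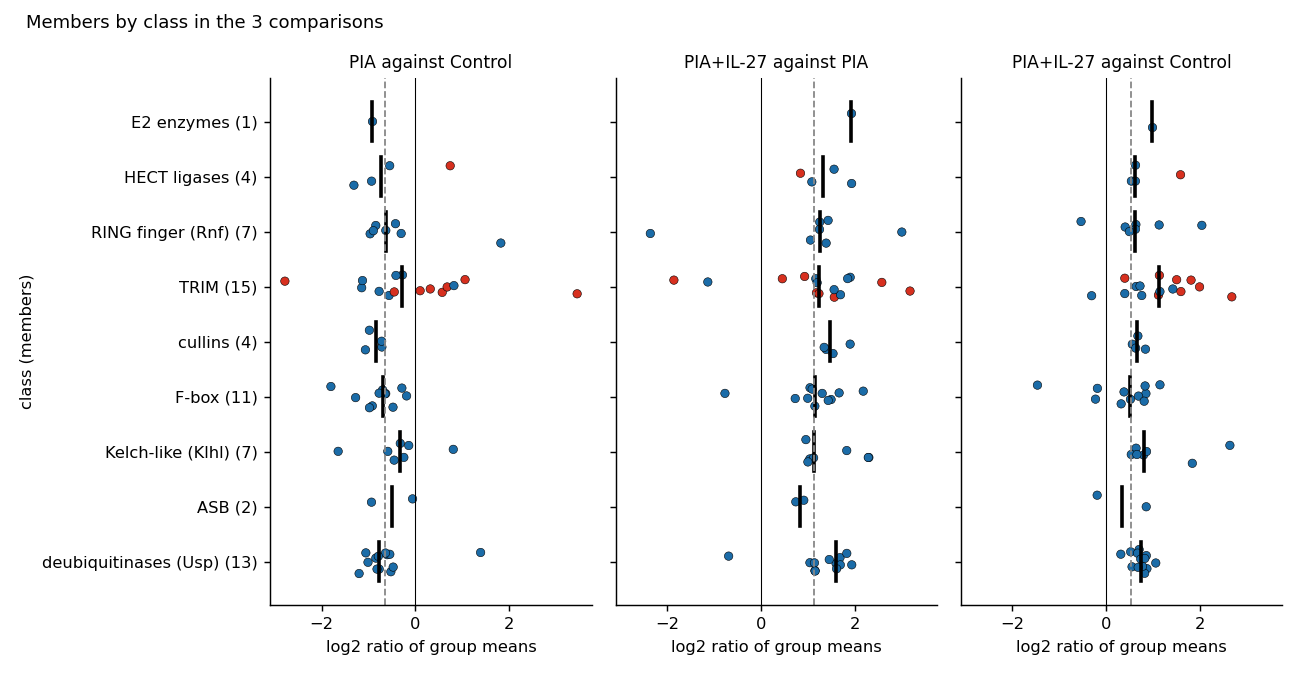
Log2 ratio of group means, with 0.5 normalized reads added, of each member in the 3 comparisons, by class, 1 point per member; red points are the interferon-inducible members, black bars the class medians and the dashed line the median of all 3733 genes. Most points lie left of 0 in PIA against Control and right of 0 in PIA+IL-27 against PIA and in PIA+IL-27 against Control, and the class medians lie on both sides of the dashed line, from 0.83 (ASB) to 1.92 (E2) in PIA+IL-27 against PIA.

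PIA+IL-27 against PIA asks which members differ when IL-27 is added. Of the 64 members 51 had both PIA+IL-27 libraries above both PIA libraries, beside 57.1% of all genes, and 3 had both below, beside 16.5%. The median log2 ratio was 1.33 for the members and 1.13 for all genes, and 59 members were higher in PIA+IL-27. With Rnf17 set to its bound against a PIA of 0 reads the members' median was 1.28. No member passed edgeR's test in this comparison either; of all tested genes 0.0622% passed as higher and 0.373% as lower. At an unadjusted p under 0.05 there were 11 higher members and 0 lower of 58, beside 18.7% of all tested genes in either direction, which is about the members' share. The smallest adjusted p of a member was 0.257. The authors' list holds 55 members as higher and 3 as lower, beside 61.4% and 18.2% of the table. When the fit used only the 4 libraries of the comparison, without the spread between the Control libraries, 9 of 56 tested members passed as higher. Their smallest adjusted p was 0.0493 by edgeR. Of all 3006 genes tested in that fit 449 passed in either direction, which is about the same share. The 9 members were Cul3, Cul4b, Hectd2, Klhl28, Trim23, Ube2v2, Usp15, Usp34 and Usp45. The 2 Control libraries do not enter that fit, and their members lay as far apart as the compared groups.

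Klhl28 was at 2.31 ± 0.97 (unadjusted p = 0.017), Klhl4 at 2.30 ± 1.01, Ube2v2 at 1.92 ± 0.87 and Cul3 at 1.90 ± 0.85 on the log2 scale by edgeR's quasi-likelihood test, each with an adjusted p of 0.257. Trim5 was 12.3-fold higher on 25 reads in PIA+IL-27 and 2 in PIA, with a counting interval from 3.07-fold to 107-fold. The lowest members were Trim63 at -1.18 ± 1.27, Fbxl8 at -0.82 ± 1.32 and Usp43 at -0.69 ± 0.84. All 3 were above 0 with GC and length trends removed (0.17, 1.05 and 0.72), and Usp43 was at 0.35 without PIA 2. No other tested member was below 0. With TMM factors the median of the members in this comparison was 0.17, beside -0.029 for all genes, and the medians of both were nearer 0. Asb4, Herc6, Trim12c and Trim34b, all above 0 with the authors' factors, were below 0 with TMM factors (-0.39, -0.34, -0.21 and -0.68).

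**Figure D4:**
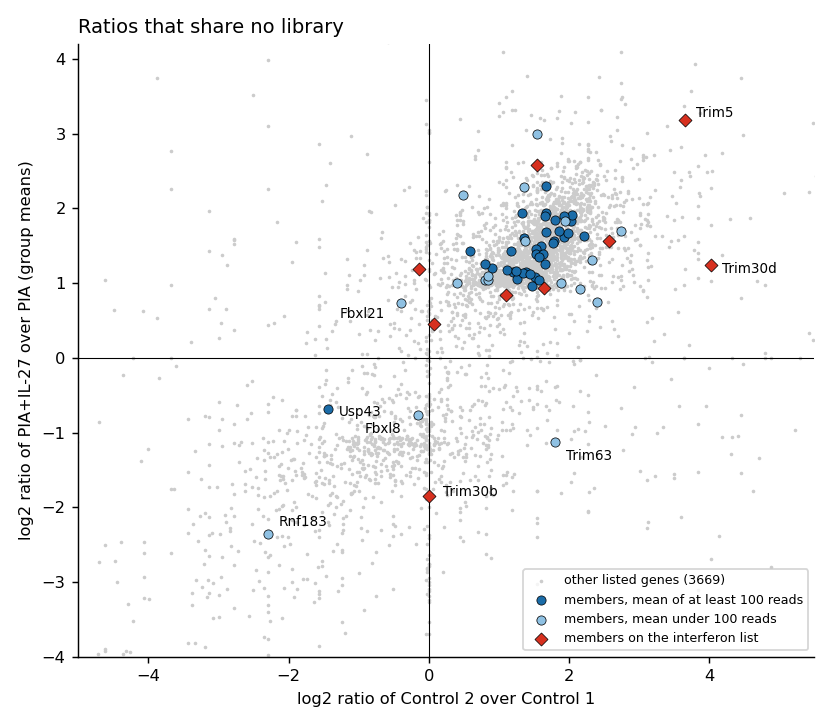
Log2 ratio of PIA+IL-27 over PIA (group means, vertical axis) against that of Control 2 over Control 1 (horizontal axis), which share no library, for the members (coloured) and the other listed genes (grey; genes beyond the axes are not drawn). In 57 of the 64 members both ratios are above 0, among them 36 of the 37 that average at least 100 normalized reads, all but Usp43.

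The ratio between the Control libraries and the ratio between the treated groups, which share no library, ran together over the members. Their Spearman rho was 0.47 over 64 members and 0.65 over the 37 with at least 100 normalized reads, against 0.66 over all 3733 genes. These are descriptions across genes, which share libraries and base composition, and are not independent replicates. Both ratios were above 0 in 57 members and opposite in 3. The median log2 ratio of Control 2 over Control 1 was 1.54 in the members and 1.25 in all genes, which is larger than the median of PIA+IL-27 against PIA.

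PIA+IL-27 against Control asks what differs from Control when both agents are given. No member passed edgeR's test, beside 0.187% of all tested genes as higher and 0.124% as lower. At an unadjusted p under 0.05 there was 1 higher member, Klhl1, and 0 lower, beside 2.86% of all tested genes in either direction, and the smallest adjusted p was 0.714. The median log2 ratio was 0.71 for the members and 0.53 for all genes. It was 1.68 without Control 2 and 0.14 without Control 1. With TMM factors it was 0.17, beside -0.018 for all genes. Both PIA+IL-27 libraries were above both Control libraries in 21 members, beside 23% of all genes, and both below in 1 (Fbxl8), beside 7.5%. The authors' list holds 14 members as higher and 1 as lower, beside 13.3% and 8.57% of the table. Of the 14, 7 were among the 9 interferon-inducible members. Herc6 and Trim34b, 2 of these 7, are in the table only through this comparison. Trim12a, Trim30a, Trim30d and Trim34a, also among the 7, are in it only as higher in PIA+IL-27, here and against PIA. The count was thus in large part fixed by that selection. By edgeR's quasi-likelihood test Trim12c was at 2.20 ± 1.17 (unadjusted p = 0.0589), Klhl4 at 1.84 ± 0.99, Trim30d at 2.03 ± 1.32 and Herc6 at 1.60 ± 1.06 on the log2 scale, each with an adjusted p of 0.835. On the lower side Fbxl8 was at -1.55 ± 1.31, Trim63 at -0.34 ± 1.28, Fbxo36 at -0.23 ± 1.03, Asb4 at -0.20 ± 1.12 and Fbxl21 at -0.19 ± 1.04. The last 4 of these turned above 0 with a single library left out: without Control 2 Trim63 was at 0.91, Fbxo36 at 0.26 and Asb4 at 1.499, and without Control 1 Fbxl21 was at 0.030.

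Usp43 and Klhl1 were high in the libraries with high Cux2 and Rorb. Usp43, a deubiquitinase, had 1092 and 388 normalized reads in PIA+IL-27, 580.4 and 1800.2 in PIA, and 665 and 245 in Control. Its highest values were in PIA+IL-27 1 and PIA 2, the libraries highest in Cux2 and Rorb, and its lowest in Control 2. Klhl1, an actin-binding Kelch protein of the brain, had 373 and 24.3 in PIA+IL-27, 24.98 and 86.2 in PIA, and 12.7 and 50.5 in Control. Its fitted log2 fold change of 2.65 ± 1.01 in PIA+IL-27 against Control (unadjusted p = 0.0085, adjusted p = 0.714 by edgeR) came from PIA+IL-27 1, since PIA+IL-27 2 lay between the Control libraries and the value was -0.38 without PIA+IL-27 1. Klhl4 had 214 and 66.0 in PIA+IL-27, 25.9 and 30.5 in PIA, and 21.5 and 56.2 in Control. It too was highest in PIA+IL-27 1, but it was not raised in PIA 2 and had the common pattern. The part of neocortical tissue in these values was not tested.

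A few members stood outside both patterns, all at low levels. Fbxl8 had 5.21 and 2.91 normalized reads in PIA+IL-27, 5.77 and 8.73 in PIA, and 12.7 and 11.4 in Control, with no overlap between the 3 groups. Trim63, a ligase of muscle atrophy, had 10.4 and 0.971 in PIA+IL-27, 8.65 and 17.5 in PIA, and 2.94 and 11.4 in Control. Fbxl21, which binds the cryptochromes of the circadian clock, had 29.2 and 44.7 in PIA+IL-27, 21.1 and 22.9 in PIA, and 48.0 and 36.2 in Control. Fbxo36 had 20.9 and 61.2 in PIA+IL-27, 24.98 and 14.2 in PIA, and 34.3 and 61.9 in Control. PIA was below Control without overlap in the last 2 genes as in Fbxl8. The 6 members with too few reads to be tested were Fbxo15, Rnf17, Rnf183, Trim12a, Trim30b and Trim43b. Rnf17, known from germ cells, had the fewest reads, with 3.13 and 3.88 normalized reads in PIA+IL-27, 0 in both PIA libraries, and 0 and 0.952 in Control. That is at least 2.30-fold higher in PIA+IL-27 than in PIA, against a floor of 3 reads over the group. Trim30b had 1.04 and 0.971 in PIA+IL-27, 7.69 and 2.18 in PIA, and 0 in both Control libraries, and was at least 3.53-fold higher in PIA than in Control by the same floor. Trim12a had 11.5 normalized reads in PIA+IL-27 1 and 0 to 1.09 in the other 5 libraries. Fbxo15 (0.961 to 9.71 normalized reads), Trim43b (0 to 8.34) and Rnf183 were as low.

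Lists of members by function had the order of the rest. The 7 listed members that are linked to neurodevelopmental disorders in humans, of 21 on the list, include Cul3, Cul4b, Ube3a and Usp9x, and 0 of them passed the test in any comparison. All 7 had the common pattern, with a median log2 ratio of 1.54 in PIA+IL-27 against PIA. The 3 with a textbook role in neurons (Cul3, Trim2 and Ube3a, of 18) also had it, with a median of 1.56. So did all 5 listed members of the mitotic and DNA damage ubiquitin system (Cul4b, Fbxo5, Fbxw7, Rnf168 and Usp1, of 20), with a median of 1.15. The pattern also held for 52.4% of all genes, and for 76.2% of the 1602 other genes that averaged at least 100 normalized reads. Of a list of 14 family genes that act on mitochondria, the endoplasmic reticulum or autophagy, 0 were in the table. That list is not complete, as it leaves out Rnf170 of the endoplasmic reticulum.

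Most other genes of the pathway behaved like the members. Of 158 on the lists of ubiquitin, E1 enzymes, other ligases and adaptors, other deubiquitinases and proteasome subunits, 36 were in the table and 0 passed edgeR's test in any comparison and either direction. Of these 36, 30 had both PIA+IL-27 libraries and Control 2 above the other 3 libraries, beside 52.4% of all genes. The median log2 ratio of the 36 was 1.25 in PIA+IL-27 against PIA, -0.59 in PIA against Control and 0.72 in PIA+IL-27 against Control. Dzip3, a RING ligase, had 1010.4 and 815 normalized reads in PIA+IL-27, 192 and 190 in PIA, and 195 and 813 in Control. The immunoproteasome subunits ran the other way. Psmb8 had 95.9 and 89.3 in PIA+IL-27, 444 and 425 in PIA, and 216 and 37.1 in Control, and Psmb9 had 39.6 and 31.1 in PIA+IL-27, 93.2 and 235 in PIA, and 54.9 and 19.996 in Control. PIA was above PIA+IL-27 and Control without overlap in both. Their unadjusted p were 0.0523 and 0.032 in PIA against Control, and their adjusted p 0.617 by edgeR's quasi-likelihood test. Psmc6, a subunit of the regulatory particle, had 1467 and 1016 in PIA+IL-27, 473 and 374 in PIA, and 275 and 925 in Control, like the members. Socs3, the adaptor that dampens cytokine receptor signalling, had 54.2 and 63.1 in PIA+IL-27, 368 and 143 in PIA, and 180.2 and 79.0 in Control. Vcpip1, a deubiquitinase, had 623 and 549 in PIA+IL-27, 168 and 116 in PIA, and 160 and 502 in Control.

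GC content and transcript length were not used by the symbol rule. Their longest coding transcript (GENCODE M21) had a median GC content of 43.7% and a median length of 4180.5 bases, against 44.9% and 3587.5 bases for the other listed genes. The 330 annotated family genes outside the table with such a transcript had a median GC content of 49.8% and a median length of 3248.5 bases. All genes that the authors list as higher in PIA+IL-27 against PIA had medians of 42.5% and 4582 bases. The difference between listed and unlisted family genes thus cannot be told apart from the selection of the table. Across the 64 members the log2 ratio of PIA+IL-27 over PIA was lower at higher GC content (Spearman's rho -0.61), as was that of Control 2 over Control 1 (-0.44). Across all 3574 listed genes with a transcript the values were -0.62 and -0.51. Of the 12 members under 40% GC, 10 had the common pattern, beside 88.4% of the other genes in that band. Of the 6 members at 50% or more 0 had it (Fbxl8, Fbxo36, Klhl34, Rnf183, Trim63 and Usp43), beside 5.61% of the other genes there. Of the 5 members lower in PIA+IL-27 than in PIA by group means, 4 were among these 6, and the other was Trim30b. Between 45 and 50% GC 13 of 16 members had the pattern, beside 46.2% of the other genes in that band. The role of GC content in the differences was not tested. With loess trends on GC content and length taken out of each library, the median log2 ratio of the members was 0.82 in PIA+IL-27 against PIA, -0.25 in PIA against Control and 0.54 in PIA+IL-27 against Control, with 0 members passing the test.

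**Figure D5:**
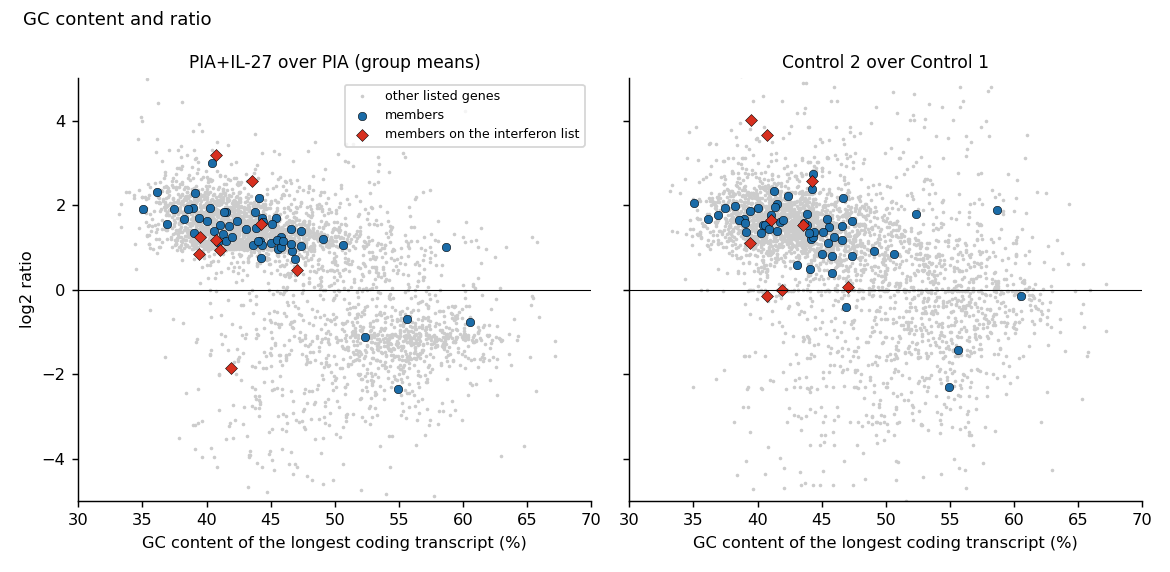
Log2 ratio of PIA+IL-27 over PIA (left) and of Control 2 over Control 1 (right) against the GC content of the longest coding transcript in percent, for the members (blue, red for the interferon list) and the other listed genes (grey; points beyond the axes are not drawn). In both panels the ratio is lower at higher GC content, and the 6 members at 50% GC or more have the lowest median ratios.

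By chromosome, 11 members lie on chromosome 7, among them the TRIM cluster and the imprinted genes Ube3a and Usp29, and 4 lie on the X chromosome (Cul4b, Klhl34, Klhl4 and Usp9x). Usp29 had 553 and 478 normalized reads in PIA+IL-27, 282 and 217 in PIA, and 180.2 and 537 in Control, with the common pattern like Ube3a. The X-linked Usp9x and Cul4b had the common pattern. Y-linked transcripts were high in PIA+IL-27 1 and both PIA libraries, and the part of sex in these values was not tested.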

How the data were processed

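Total RNA of mouse hippocampus was measured in 6 libraries, grouped by the treatment in the labels. Per the file headers, the authors deposited an estimated read count (an expected count, not always whole), a normalized read count, TPM, and a log2 fold change with a Q value for each comparison. Each deposited normalized read count (a signal) is the count, rounded up and divided by 1 factor per library (0.917 to 1.05); this holds for 100% of values within 1e-06. The listed genes hold 2.14 to 5.61% of the full sum of the deposited TPM scale, so the authors set it on more genes than those listed. The authors' deposited log2 fold change and Q value were used only for counts of listed genes. For the aligner, the counter, the genome build, the strand setting and the authors' test the entry is: not given in the sources used here.

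The estimated counts, rounded to whole numbers, were tested with edgeR 4.0.16 (R 4.3.3; quasi-likelihood) with the authors' factors, 1 fit of all 6 libraries, filterByExpr by group (minimum count 10; 3216 genes, 58 members) and Benjamini-Hochberg adjustment over all tested genes, with a threshold of 0.05. Ratios of group means have 0.5 added. The table was selected by the authors on these libraries, so adjusted p-values hold within it only. Members and gene lists were chosen with earlier results of these data known. The genes named were those past the threshold, the 5 higher and 5 lower members with the smallest p per comparison (fewer where fewer had that direction), up to 4 per function list and 2 per class with the most reads, the member with the fewest reads and, of the other pathway genes, the 3 with the smallest p. Some genes that this rule names are not reported here. Further members named were chosen after their values were seen. Counting intervals are exact, at 95%. The test was tested on simulated data. Gene symbols, order and promoters come from RefSeq GRCm38.p6 and GC content from GENCODE M21. Alternatives used DESeq2 1.42.0 and limma 3.58.1.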

Additional observations from a re-analysis of the deposited data

How the results depend on the processing

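No member passed the test in any comparison with TMM or median-of-ratios factors, without the filter, with DESeq2, with limma on log2 TPM plus 1 or 0.1, with GC and length trends removed, or with any single library left out (0 to 0 members called). The exception was PIA+IL-27 against PIA in only the 4 libraries of the comparison, with 9 of 56 tested members called, beside 449 of 3006 tested genes. DESeq2 had 22, 1 and 3 members at an unadjusted p under 0.05 in PIA+IL-27 against PIA, PIA against Control and PIA+IL-27 against Control, beside 946, 211 and 79 of all 3733 genes. Over all genes edgeR called 14, 7 and 10 in these comparisons, with ranges of 0 to 449, 0 to 33 and 0 to 21 over the alternatives.

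The median log2 ratio of the members in PIA against Control was -0.63, and turned to 0.047 with TMM and 0.050 with median-of-ratios factors; with 1 library left out it ran from -1.15 to 0.30. In PIA+IL-27 against PIA it was 1.33, and 0.17 and 0.19 with these factors. Both kinds of factor were computed on the listed genes alone. With 1 library left out it ran from 1.16 to 1.52. In PIA+IL-27 against Control it was 0.71, and ran from 0.14 (without Control 1) to 1.68 (without Control 2). Of 835 values of named genes under an alternative, 42 had the other sign, none of them called, and 6 were called, all with only the 4 libraries.

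Libraries share replicate numbers, but the labels do not say whether the numbers pair them. The correlations of same-numbered deviations were -0.25 for PIA+IL-27 and PIA, 0.16 for PIA and Control, and 0.060 for PIA+IL-27 and Control. With 2 libraries a group, correlations across genes cannot decide whether libraries were paired. With the replicate number as a block 0 members passed, and the medians were 1.37 in PIA+IL-27 against PIA, -0.48 in PIA against Control and 0.87 in PIA+IL-27 against Control. With the numbers of PIA+IL-27 crossed, a choice made after seeing the data, 0 members and 1 gene passed in PIA+IL-27 against PIA. Without PIA 2 and PIA+IL-27 1, the libraries high in Cux2 and Rorb, also chosen after seeing the data, 0 members passed and the medians were 1.09, -0.57 and 0.50 in the same comparisons. With 2 libraries a group, differences of the size of their own standard errors were not detectable.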
